A study of Mus musculus with 6 samples.

Results

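The carboxylesterase genes of the mouse liver are described here in 6 livers, 3 of wild-type mice (WT) and 3 of mice whose Hmgb2 gene was knocked out (HMGB2-KO). They are the array rows annotated with 1 of 10 gene symbols, namely Ces2b, Ces2a, Ces2c, Ces2e, Ces1b, Ces1d, Ces1e, Ces1f, Ces1g and Ces3a. Of these 10 genes 9 were named among the 19505 genes of the table, with 1 row each, and Ces2c was not analysed here. The set was drawn up around Ces2b, which was selected on its measured difference between the genotypes, so that difference and its relatives' values in the same comparison are given as a description, with no test.

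All 6 animals were male C57BL/6 mice aged 8 weeks, and the labels name no treatment. Total RNA of each liver was read on 1 Clariom S mouse array, a single-colour array with several short probes per gene. Hmgb2 encodes a DNA-bending chromatin protein, and the comparison was a screen for genes related to its expression. The sources used here do not say how the knockout was made or whether it is limited to a cell type. The labels number the livers 38, 40 and 31 (WT, in replicate order) and 39, 41 and 32 (HMGB2-KO), without saying what the numbers mark. As nothing states that the arrays are independent beyond these numbers, p-values measure the spread between these 6 samples.

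Carboxylesterases are serine hydrolases of the endoplasmic reticulum that cleave ester, thioester and amide bonds. Hepatocytes hold them in large amounts, where they activate or inactivate many drugs and also split triacylglycerols and other lipid esters. In the mouse the genes form tandem clusters of close copies, and the nuclear receptors CAR, PXR and PPARalpha are known to act on several of them. Because the copies are alike, an array probe for 1 gene may bind transcripts of another, and probe sequences were not used here.

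Each value is a log2 difference from a baseline of its own row, after the array was centred on its median, so livers can be compared for a gene but no level of a gene against another. The array of WT replicate 2 stood apart: its median before centring was 0.26, against -0.05 to 0.01 on the others, and 132 rows lay more than 2 log2 below every other array, against 4 to 33. The hepatocyte marker genes differed less, with a median of 0.09 on that array and -0.02 to 0.02 on the others. Values as deposited therefore lower every log2 fold change of HMGB2-KO against WT by the same amount, and the median over all genes is then -0.12 in place of -0.00. Hmgb2 lay at 0.47, 0.37 and 0.42 in WT and at -0.66, -0.33 and -0.43 in HMGB2-KO, so each liver lay on the side that its label gives. Where the array's Hmgb2 probes lie relative to the knocked-out part was not tested.

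Promoter sequences are shown for 4 carboxylesterases, so that Ces1 genes with a shared string of letters can be set beside Ces2a, which lacks it. The values of these genes by label number are given further on. RefSeq windows of assembly GRCm38.p6 were found for 6 of the 10 genes, each from 250 bases before to 50 bases after a start site, and are written 5′ to 3′ along the gene. Capitals mark the letters TTATGTAA, a form of the site that PAR bZIP and related transcription factors are known to bind.

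Ces1b, chr8:93079891-93080190, minus strand: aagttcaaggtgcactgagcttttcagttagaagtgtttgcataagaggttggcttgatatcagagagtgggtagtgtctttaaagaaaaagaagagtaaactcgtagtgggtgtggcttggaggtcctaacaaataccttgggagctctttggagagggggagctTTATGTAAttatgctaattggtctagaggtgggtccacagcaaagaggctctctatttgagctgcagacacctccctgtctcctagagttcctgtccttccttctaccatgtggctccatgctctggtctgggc

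Ces1e, chr8:93229570-93229869, minus strand: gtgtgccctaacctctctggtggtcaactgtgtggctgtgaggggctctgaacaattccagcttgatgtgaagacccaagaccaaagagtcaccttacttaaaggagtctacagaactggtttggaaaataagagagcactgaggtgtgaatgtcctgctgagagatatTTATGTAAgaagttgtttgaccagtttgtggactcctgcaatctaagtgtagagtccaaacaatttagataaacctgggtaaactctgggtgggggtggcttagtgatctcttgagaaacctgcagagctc

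Ces1g, chr8:93337160-93337459, minus strand: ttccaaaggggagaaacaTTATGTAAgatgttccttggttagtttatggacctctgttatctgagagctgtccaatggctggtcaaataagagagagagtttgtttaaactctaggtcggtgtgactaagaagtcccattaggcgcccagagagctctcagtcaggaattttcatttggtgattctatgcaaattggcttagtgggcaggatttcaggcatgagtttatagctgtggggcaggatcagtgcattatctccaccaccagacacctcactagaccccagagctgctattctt

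Ces2a, chr8:104733753-104734052, plus strand: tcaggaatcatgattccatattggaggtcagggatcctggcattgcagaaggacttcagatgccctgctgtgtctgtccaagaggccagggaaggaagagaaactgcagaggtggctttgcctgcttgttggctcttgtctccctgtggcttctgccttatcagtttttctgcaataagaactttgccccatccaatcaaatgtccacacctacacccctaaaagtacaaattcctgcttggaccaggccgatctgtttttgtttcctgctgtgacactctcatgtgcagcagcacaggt

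The capitals begin 84 bases before the start site in Ces1b, 81 bases in Ces1e and 232 bases in Ces1g. Ces1b has an overlapping window from another start in the table, in which the same letters begin 7 bases before the start. Of the Ces1 genes with a window 5 of 6 held TTATGTAA, Ces1a and Ces1c being the others, and of the Ces2 genes 0 of 6 did. Among all 32851 windows, 0.938% held it on either strand. It was picked out after the values were seen and is 1 of 14 motifs searched on both strands. The aligned identity between windows of Ces1b, Ces1e and Ces1g was 50.4% to 55.8%, close to the 48.6% to 53.2% between these and the Ces2 windows. Identity between windows of unrelated genes is not given here. The Ces1 genes are tandem copies, so their matches cannot be counted as independent, and the identities do not settle this. Within the Ces2 genes it was 55.5% (Ces2c with Ces2e), 58.7% (Ces2a with Ces2e) and 66.9% (Ces2a with Ces2c).

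The other motifs were common, or were matched in few of these windows. The letters CANNTG, found in 72.3% of all windows, were in all 6, and the letters CCAAT, found in 37.4%, were in those of Ces1b, Ces1g, Ces2a and Ces2c. The window of Ces1g held TATAAA, which 13.6% of all windows hold, and the window of Ces1b held AGTTCA, which 14.0% hold. The window of Ces2e held GGGCGG, present in 35.7% of all windows, and that of Ces2a held AGGTCA, a half-site of nuclear receptors present in 16.3%. No match was found in the 6 windows for the other motifs searched. These were the HNF1 half-site GTTAAT, present in 7.10% of all windows, and the full HNF1 palindrome, present in 0.00913%. They were also the direct repeat of the receptor half-site with a base between, present in 0.0396%, the C/EBP palindrome TTGCGCAA, present in 0.183%, and its looser form TTGCNNAAT, present in 2.40%. The last were the E-box CACGTG, present in 7.15% of all windows, and the AP-1 site TGACTCA, present in 5.20%. The E-box is a case of the first motif named, and the full forms of the HNF1 and receptor sites contain their half-sites, so these matches overlap. A match is a string of letters and not a shown binding site.

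Of the Ces2 genes, Ces2b stood at 0.25, 0.73 and 0.67 in WT replicates 1 to 3 and at 1.42, 3.06 and 2.36 in HMGB2-KO replicates 1 to 3. Every HMGB2-KO liver lay above every WT liver, and the HMGB2-KO livers were spread more widely among themselves. Its mean was 0.55 ± 0.26 (SD, n = 3) in WT livers and 2.28 ± 0.82 (SD, n = 3) in those of HMGB2-KO. The log2 fold change was therefore 1.73, with a standard error (SE) of 0.38, or 3.32-fold on the linear scale. That size, for which the gene was chosen, exceeds 99.9% of all genes. The residual SD of Ces2b within genotypes, 0.61, was also larger than that of 96.2% of genes, against a median of 0.19 over all genes. The difference was 1.75 within the livers labelled 38 to 41, 1.69 between the single livers labelled 32 and 31, and from 1.34 (without HMGB2-KO replicate 2) to 2.16 (HMGB2-KO replicate 1 left out).

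Ces2a, which hydrolyses acylglycerols, lay at 1.05, 0.74 and 0.48 in WT and at 0.77, 1.23 and 0.59 in HMGB2-KO. The genotypes overlapped, and the log2 fold change was 0.11 (SE 0.21). Ces2e was at 0.54, 0.39 and 0.24 in WT and at 0.64, 0.42 and 0.34 in HMGB2-KO, again overlapping, with a log2 fold change of 0.08 (SE 0.14). With the values as deposited these came to -0.01 and -0.04. In both genes the third liver of each genotype was its lowest.

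Of the Ces1 genes, Ces1b was the other gene whose genotypes did not overlap. It stood at 0.35, 0.02 and 0.42 in WT and at -0.21, -0.23 and -0.16 in HMGB2-KO, so that the HMGB2-KO livers lay close together below all WT livers. The log2 fold change was -0.46 (SE 0.14), or -0.58 as deposited, and -0.58 to -0.39 with 1 liver left out. Over all genes 4.32% had every HMGB2-KO liver above every WT liver, as 1 of the 9 carboxylesterases did, and 5.35% had every one below, as 1 of the 9 did.

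Ces1d encodes triacylglycerol hydrolase, which releases stored fat for secretion in lipoproteins. Its values were 0.16, -0.26 and 0.50 in WT and -0.02, -0.13 and 0.23 in HMGB2-KO. The log2 fold change was -0.11 (SE 0.21). Ces1g, an esterase tied to liver lipid secretion and fat synthesis, was at 0.05, -0.31 and 0.71 in WT and at -0.13, -0.18 and 0.13 in HMGB2-KO, and its log2 fold change was -0.21 (SE 0.25). In both genes the genotypes overlapped and the third liver of each genotype was the highest. Without WT replicate 3 both values changed side, to 0.08 for Ces1d and 0.07 for Ces1g, and without WT replicate 2 they were -0.30 and -0.44.

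Ces1e encodes egasyn, which binds beta-glucuronidase in the endoplasmic reticulum. It lay at 1.08, 0.56 and 1.03 in WT and at 0.83, 0.53 and 0.95 in HMGB2-KO, with a log2 fold change of -0.12 (SE 0.19). Gusb, the gene of beta-glucuronidase itself, was looked up for this tie, outside the rule for named genes, and had a log2 fold change of 0.11 (SE 0.18). Ces1f was at 0.73, 0.30 and 0.47 in WT and at 0.42, 0.36 and 0.68 in HMGB2-KO, and its log2 fold change was -0.01 (SE 0.16). In both carboxylesterases the second liver of each genotype was the lowest, and the genotypes overlapped.

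Ces3a, the remaining gene, has the narrowest range of the 9 over the 6 livers, 0.34. It was at 0.46, 0.23 and 0.51 in WT and at 0.50, 0.38 and 0.57 in HMGB2-KO, with a log2 fold change of 0.08 (SE 0.13), or -0.04 as deposited. Besides Ces2b and Ces1b, the other 7 genes overlapped between genotypes. Most genes did, as 4.32% of all genes lay apart above and 5.35% apart below. Of the 9 genes 4 had a log2 fold change above 0, where 49.5% of all genes did, and 5 below, where 50.5% did. As deposited, 1 lay above 0 and 8 below, where 23.0% of all genes lay above and 77.0% below. In the plot of all 9 genes by liver these 7 overlap between genotypes.

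**Figure D1:**
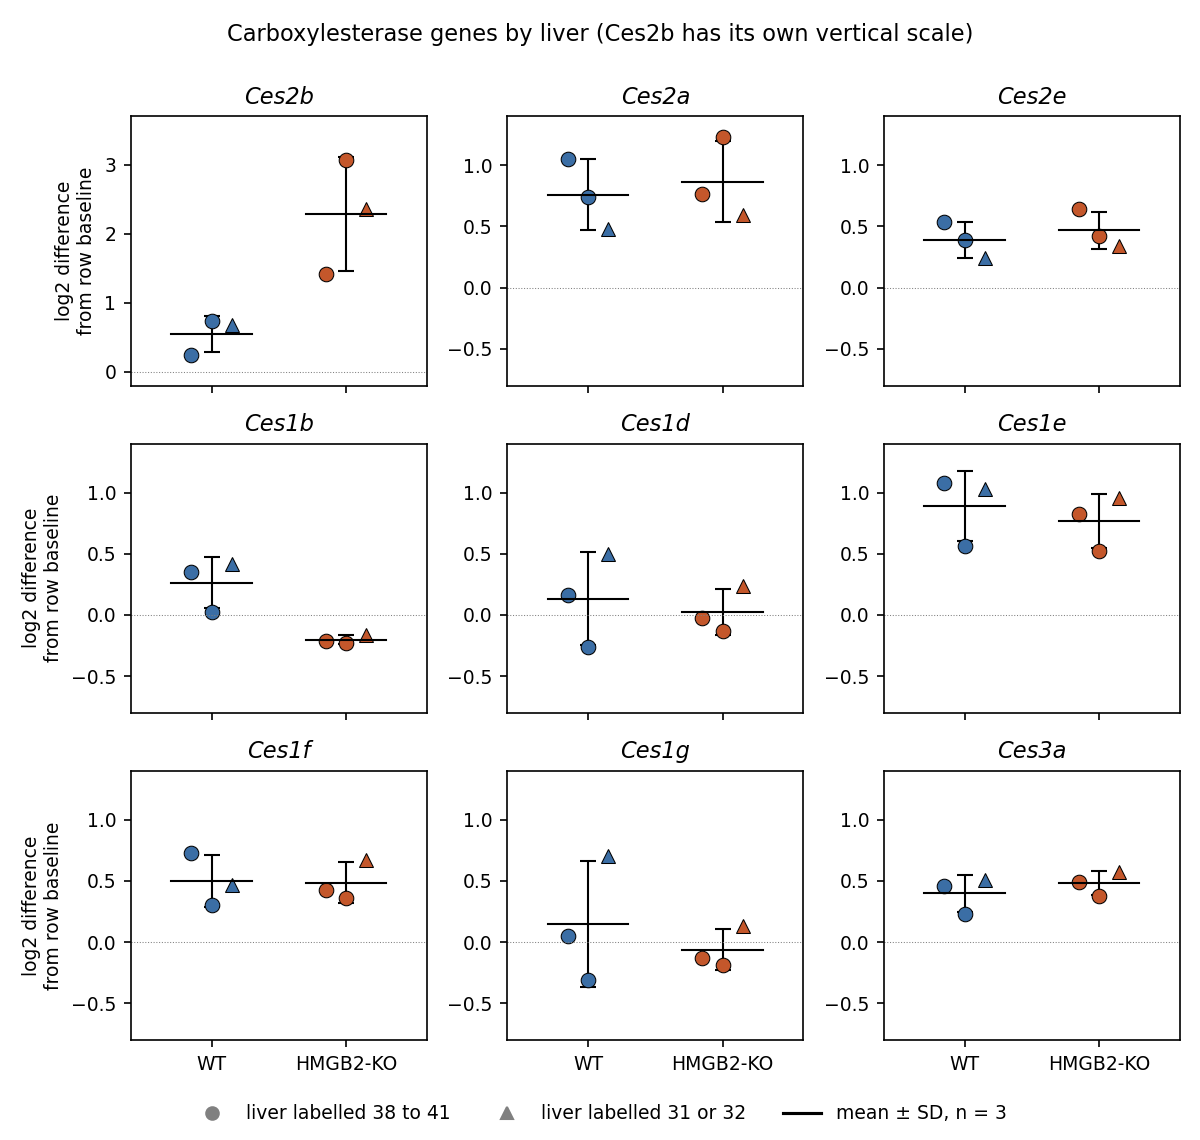
Values of the 9 measured carboxylesterases in each liver, as log2 difference from the row's baseline after centring (vertical axis), by genotype (horizontal axis); bars are the mean ± SD of 3 livers, and triangles mark the livers labelled 31 or 32. Ces2b spans 0.25 to 0.73 in WT and 1.42 to 3.06 in HMGB2-KO on its own scale, Ces1b does not overlap in the other direction, and the other 7 genes overlap.

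Setting Ces2b against its relatives on the same array removes what shifts them alike, such as the centring. Ces2b minus the median of the other 8 genes was -0.25, 0.47 and 0.18 in WT and 0.96, 2.69 and 1.90 in HMGB2-KO. The WT mean was 0.13 ± 0.36 (SD, n = 3) and the HMGB2-KO mean 1.85 ± 0.87 (SD, n = 3), a difference of 1.72, or 1.64 against Ces2a and Ces2e alone. Leaving out 1 liver gave 1.30 to 2.17. Ces2b was chosen for its difference, and the other 8 genes had a median log2 fold change of -0.06. These values therefore largely repeat the 1.73 of Ces2b and are no separate support for it.

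The genes beside Ces2b in the genome lay nearer to 0. Nearly any genes would, as Ces2b was chosen for its difference, which exceeds that of 99.9% of all genes. In RefSeq's order on chromosome 8, Ces2b lies between Ces2a and Ces2c, followed by Ces2e. The 20 measured genes that flank both clusters, 5 on each side, ran from -0.26 to 0.22 in log2 fold change, with a median of 0.04. Other carboxylesterases in the clusters, 8 measured of 10 listed, ran from -0.21 to 0.22, with a median of 0.11, or -0.01 as deposited. These were Ces1a (-0.01), Ces1c, which encodes a carboxylesterase of blood plasma (-0.21), Ces2f (0.02), Ces2g (0.22), Ces2h (0.13), Ces3b (0.10), Ces4a (0.19) and Ces5a (0.12). In each of these 8 genes the genotypes overlapped.

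**Figure D2:**
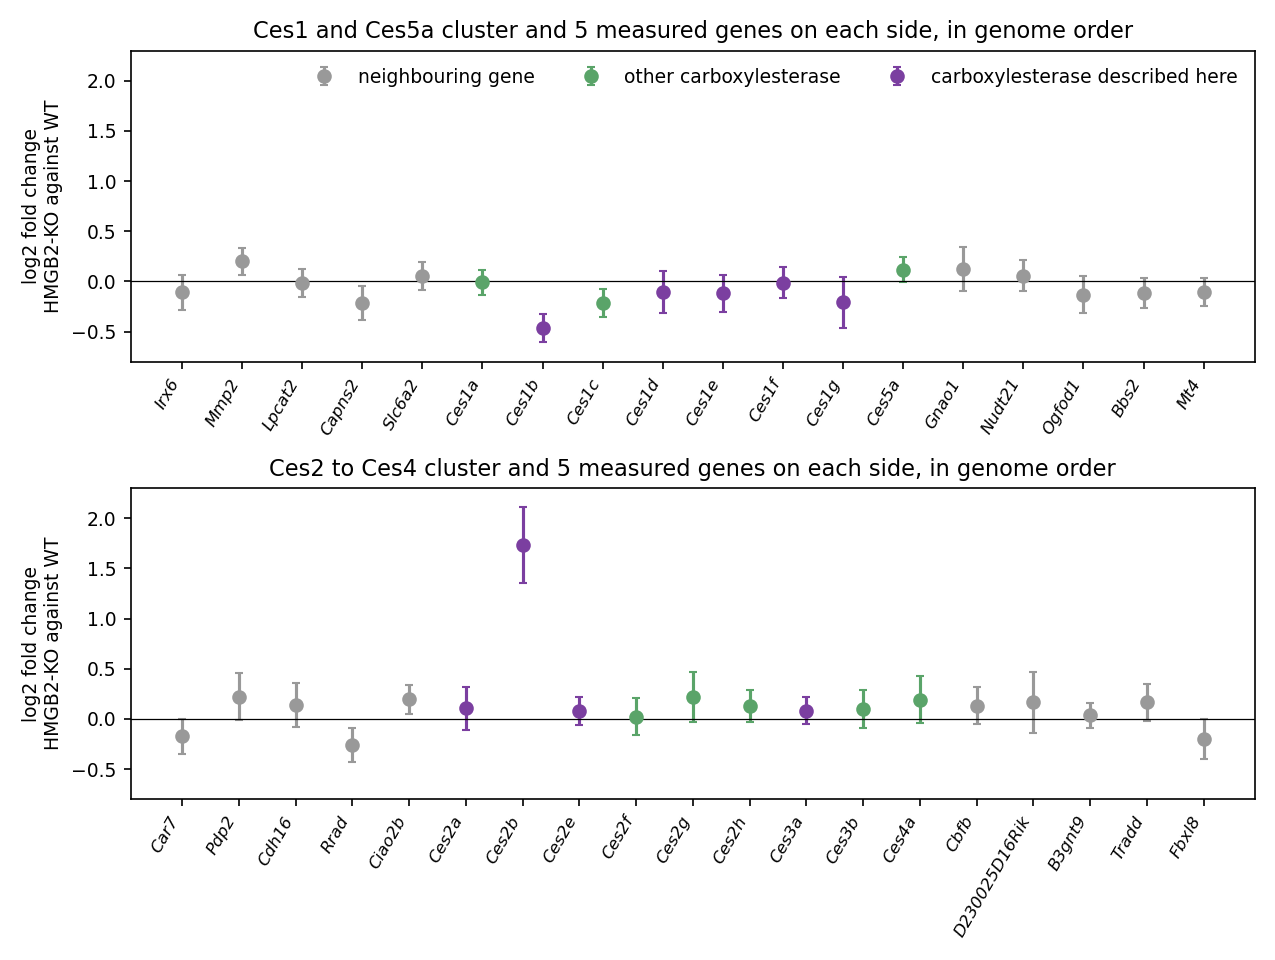
Log2 fold change of HMGB2-KO against WT (vertical axis; bars are ± 1 SE of the limma fit) for the measured genes of both carboxylesterase clusters and 5 measured genes on each side, in genome order with no distance scale (horizontal axis). Ces2b, which was chosen for its difference, stands at 1.73, and the flanking genes run from -0.26 to 0.22.

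Across all genes, limma with Benjamini-Hochberg adjustment called 0 of 19505 for genotype (0%) at 0.05, and 717 (3.68%) had an unadjusted p under 0.05. Without moderation of the variance these counts were 0 and 837. The gene lists around the carboxylesterases, chosen with earlier results of these data known, held 0 genes past the adjusted threshold in either direction.

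Other esterases and lipid hydrolases had 14 of 23 measured genes higher in HMGB2-KO and a median log2 fold change of 0.12, or 0.00 as deposited, against -0.00 over all genes. Those with the smallest p were Pnpla3, a lipase of lipid droplets (0.24, SE 0.15), the monoacylglycerol lipase Abhd6 (0.28, SE 0.19) and the fatty acid amide hydrolase Faah (-0.27, SE 0.13). In the list of lipoprotein assembly and lipid droplet genes 13 of 18 were higher, with a median of 0.09, or -0.03 as deposited. Its genes with the smallest p were the droplet coat genes Plin2 and Plin5 (0.46, SE 0.25 for the latter) and Cidea, whose product enlarges droplets. Plin2 was at -0.08, -0.74 and -0.35 in WT and at 0.09, -0.07 and -0.01 in HMGB2-KO, without overlap. Cidea, at -0.06, 0.20 and 0.43 in WT and -0.25, -0.45 and -0.36 in HMGB2-KO, did not overlap either. Of the 18 genes 2 lay apart above, Plin2 and Sar1b (0.21, named outside the rule), where 4.32% of all genes did. Apart below lay 1 of the 18, where 5.35% of all genes did.

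The factors known to act on carboxylesterase genes were split evenly, with 7 of 14 higher and a median of -0.00. Nr1i2, which encodes PXR, was at -0.35 (SE 0.19), Nfe2l2, which encodes NRF2, at 0.22 (SE 0.16) and the glucocorticoid receptor gene Nr3c1 at 0.21 (SE 0.14). Of the CAR and PXR targets 11 of 21 were higher, with a median of 0.03. Among them Slco1a4, a bile acid and drug uptake carrier, was at 0.04, 0.09 and -0.56 in WT and at -0.49, -1.21 and -1.01 in HMGB2-KO, overlapping, with a log2 fold change of -0.76 (SE 0.24). Cyp2b9 was at -0.73 (SE 0.41) and Cyp2c55 at 0.39 (SE 0.21).

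Of the PPARalpha targets 14 of 20 were higher, with a median of 0.11 (-0.01 as deposited). The peroxisome gene Pex11a was at 1.50 (SE 0.81), or 0.44 without WT replicate 2, where it read -2.38 against 0.64 to 1.87 in the other livers. Creb3l3 was at 0.25 (SE 0.16) and Fgf21 at -0.18 (SE 0.14). The list of beta-glucuronidase and genes of retention in the endoplasmic reticulum had 6 of 11 higher and a median of 0.01, with the retention receptor gene Kdelr1 at 0.14 (SE 0.12) and the chaperone genes Calr (0.18, SE 0.14) and Hspa5 (-0.18, SE 0.27).

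Markers of liver cells and of organs near the liver were set beside the carboxylesterases, some of which are also expressed in intestine and kidney. Hepatocyte markers had 15 of 17 higher in HMGB2-KO after centring, where 49.5% of all genes were, or 23.0% as deposited. Their median was 0.06, or -0.05 as deposited, so that most of them were then lower. Their summed values were -1.15 to 1.63 in WT and 1.64 to 1.88 in HMGB2-KO. After centring, their median was -0.16 in WT replicate 2, whose array stood apart, and 0.00 to 0.06 in the other livers. Without WT replicate 2 their median log2 fold change was -0.01. Cyp2f2 was at 0.25 (SE 0.13) and Pck1 at 0.47 (SE 0.53). Of the intestinal epithelium markers 10 of 12 were higher (median 0.14, or 0.02 as deposited), with sums of -7.10 to -0.88 in WT and -2.36 to -0.19 in HMGB2-KO. Their widest difference, that of Lgr5 (1.76, SE 1.27), was 0.04 without WT replicate 2, and Cdh17 was at -0.51 (SE 0.30). Kidney tubule markers had 4 of 10 higher (median -0.03, sums of -0.26 to 0.63 in WT and -0.43 to 0.13 in HMGB2-KO), with Slc34a1 at -0.16 and Slc22a6 at 0.13. Pancreatic acinar markers had 7 of 11 higher (median 0.04, sums of -1.76 to 0.52 and -1.17 to 0.09), with Cpb1 at -0.35 and Pnliprp1 at -0.30.

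Kupffer cell and macrophage markers were higher in 12 of 12 genes after centring, with a median of 0.21. As deposited the median was 0.09 and not all 12 stayed above 0. Their sums were 2.06 to 3.76 in WT and 3.57 to 6.71 in HMGB2-KO. Mpeg1 was at 0.39 (SE 0.17) and C1qc at 0.29 (SE 0.15). Endothelial markers had 7 of 10 higher and a median of 0.07, with sums of 5.84 to 5.89 and 7.31 to 8.17. Pecam1, an adhesion molecule of endothelium, was at 0.25, 0.05 and -0.13 in WT and at 0.59, 0.58 and 0.63 in HMGB2-KO, and Lyve1 was at 0.63 (SE 0.29). Such sums add log2 values over genes, so a few genes can set them. Of the other endothelial markers, named outside the rule, Oit3 was at 0.37 and Eng at 0.22. Stab2 was at 0.09, Cdh5 at 0.05, Tek at 0.00, Kdr at -0.01, Clec4g at -0.03 and Stab1 at -0.10. Stellate cell markers had 7 of 10 higher (median 0.04, sums of -0.82 to 0.71 and -0.19 to 1.59), with Acta2 at 0.48 (SE 0.15) and Colec11 at 0.22 (SE 0.14). The 3 lower, named outside the rule, were Des (-0.17), Lrat (-0.12) and Col1a1 (-0.04). Cholangiocyte markers had 6 of 8 lower (median -0.25, sums of -0.15 to 0.45 and -1.63 to -0.80), with Cldn7 at -0.33 (SE 0.22) and Epcam at -0.30 (SE 0.18). The 2 higher, likewise outside the rule, were the keratin genes Krt19 (0.15) and Krt7 (0.01), so the list did not move as a whole. None of these markers passed the adjusted threshold in limma. The part of other cell types in the Ces2b and Ces1b values was not tested. In bulk liver, more cells of a type and more RNA per cell cannot be told apart, and the values hold no absolute level from which a marker could be called absent.

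The genes whose values went most closely with those of Ces2b over the 6 livers were Rarres1, Steap4, Ugt2b38, Klhl7 and Zfp280d. Likeness was the root mean square difference between profiles, each gene minus its own mean, and these genes lay at 0.59, 0.64, 0.66, 0.67 and 0.69 log2 from Ces2b. A gene that did not vary would lie at 1.00, and the median of all genes was 1.02. Rarres1, a gene induced by retinoids, was at -0.06, -0.21 and 0.70 in WT and at 0.43, 1.36 and 0.97 in HMGB2-KO. Ugt2b38, which encodes a glucuronosyltransferase, was at 0.58, 0.45 and 0.82 in WT and at 0.59, 1.75 and 1.03 in HMGB2-KO. In each of the 5 genes HMGB2-KO replicate 2 was the highest liver, as it was for Ces2b. They were picked for nearness to that profile, so the shared highest liver goes with the choice. Without WT replicate 2 only 2 of the 5 stayed among the nearest 5.

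**Figure D3:**
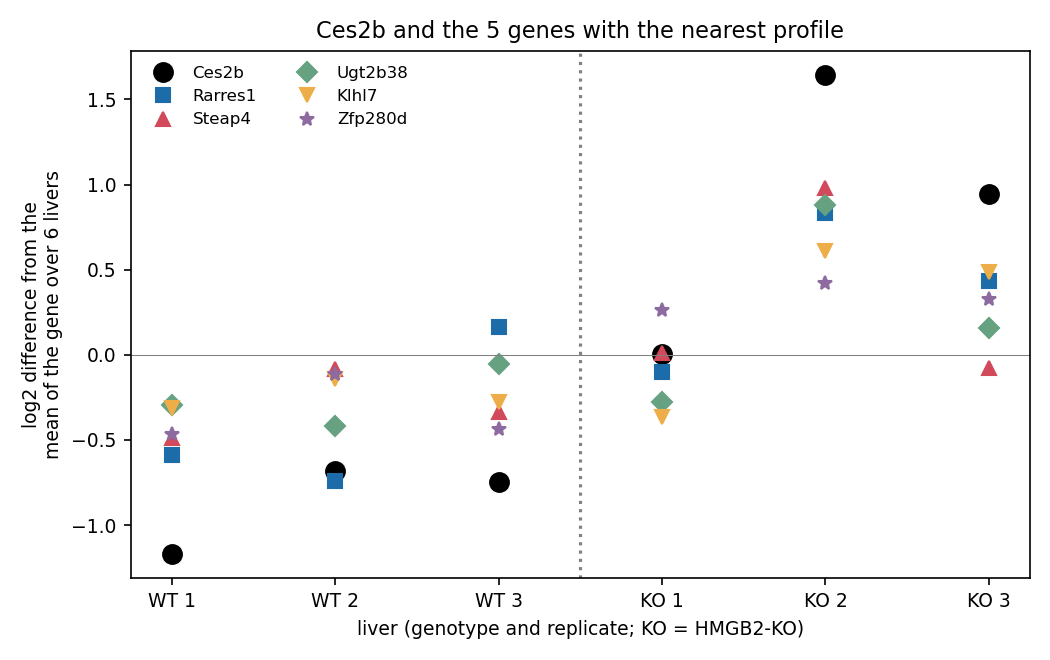
Values of Ces2b (black) and the 5 genes with the nearest profile, each minus the gene's own mean over 6 livers (vertical axis, log2), for each liver (horizontal axis; replicates have no order). In all 6 genes the highest point is HMGB2-KO replicate 2, and Ces2b has the widest range. The 5 genes were picked for nearness to the Ces2b profile.

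By the same measure the other carboxylesterases lay at 0.95 (Ces2a) to 1.22 (Ces1b) from Ces2b, around the 1.00 of a flat profile. The measure is not scaled and Ces2b was chosen for a large difference, so genes of small difference must lie there. The 28 pairs without Ces2b lay at 0.11 to 0.53, with a median of 0.25. Among them Ces1d and Ces1g were the nearest pair at 0.11, followed by Ces1f with Ces3a at 0.11 and Ces1e with Ces1f at 0.12. These pairs share the arrays and the centring, and their likeness is given as a description.

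A split of the livers that was not used to choose the genes is that by label number, 31 and 32 (1 of each genotype) against 38 to 41 (2 of each). With genotype in the fit, limma called 0 of the 9 carboxylesterases after adjustment over all genes (adjusted p from 0.474 to 0.943), and 2 of 9 had an unadjusted p under 0.05. In all, 8 genes were called (0.041%), 3 of them higher (0.0154%) and 5 lower (0.0256%) in livers 31 and 32, and 8.49% had an unadjusted p under 0.05. The 2 carboxylesterases were Ces1g, higher in livers 31 and 32 by 0.56 log2 (SE 0.18, 95% confidence interval 0.13 to 0.99, adjusted p = 0.474 in limma; 0.29 without WT replicate 3), and Ces1d, higher by 0.43 (SE 0.16, 0.04 to 0.82, adjusted p = 0.547 in limma). Ces2a lay at -0.41 (SE 0.18, -0.84 to 0.01, adjusted p = 0.600 in limma). For Ces2b the difference was 0.15 (SE 0.42) with an interval of -0.85 to 1.15, and it was 1.17 under quantile normalization and -0.20 without HMGB2-KO replicate 1. The other values were 0.24 for Ces1e, 0.15 for Ces1b, 0.15 for Ces3a, 0.12 for Ces1f and -0.20 for Ces2e.

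The liver labelled 31 or 32 was the highest of its genotype in both genotypes for 4 of the 9 genes, Ces1b, Ces1d, Ces1g and Ces3a, where 15% of all genes showed this. It was the lowest in both for Ces2a and Ces2e, 2 of 9, where 14.2% of genes did. With the values as deposited Ces3a left the first group, and the shares of all genes were 6.99% for highest and 20.8% for lowest. Under quantile normalization Ces2b joined the first group and Ces2e left the second, with shares of 16.3% and 13.9%. Among the Ces1 genes whose window held TTATGTAA, the difference was 0.56 for Ces1g, 0.24 for Ces1e, 0.16 for Ces1a, 0.15 for Ces1b and 0.0049 for Ces1c. Of these, Ces1a, Ces1b and Ces1g had liver 31 or 32 highest in both genotypes, and Ces1e and Ces1c did not. For Ces1d no window was found. The letters and this pattern thus coincide in some of these genes and not in others, and a link was not tested.

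Genes tied to known regulators were read along the same split. Over all genes the median difference was -0.00 after centring, and values as deposited shift every difference by -0.09. The share of all genes higher or lower in this split is not given here, so the counts below are a description. Of the CAR and PXR targets 14 of 21 were lower in livers 31 and 32, with a median of -0.13, or -0.22 as deposited. The list of beta-glucuronidase and retention genes had 10 of 11 higher, with a median of 0.19, or 0.10 as deposited. Ppara itself was at -1.13 (SE 0.15, adjusted p = 0.0890 in limma). Of the PPARalpha targets 15 of 20 were lower, with a median of -0.29, or -0.38 as deposited. Among them 1 passed, Angptl4, an inhibitor of lipoprotein lipase, at -3.02 (SE 0.19, adjusted p = 0.00775 in limma). Of all genes 0.041% passed in this split, and without moderation of the variance 0 did. Dbp, a PAR bZIP factor of the circadian clock that binds sites like those shown in capitals, was at 0.09 in liver 31 and 0.11 in liver 32, and at 3.64 to 5.55 in livers 38 to 41. Its difference of -4.55 (SE 0.45) had an adjusted p of 0.0555 in limma. The related factors Tef and Hlf were at -0.34 (SE 0.14, adjusted p = 0.581 in limma) and -0.29 (SE 0.19, adjusted p = 0.723 in limma). Nfil3, a repressor at such sites, was at 0.86 (SE 0.24, adjusted p = 0.404 in limma). Ppara and these 4 factors were picked out after the values were seen. Kupffer cell and macrophage markers were higher in livers 31 and 32 in 12 of 12 genes, with a median of 0.14, or 0.05 as deposited, and hepatocyte markers in 12 of 17, with a median of 0.05, or -0.04 as deposited. The part of these factors and cell types in the Ces1 and Ces2a values was not tested.

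**Figure D4:**
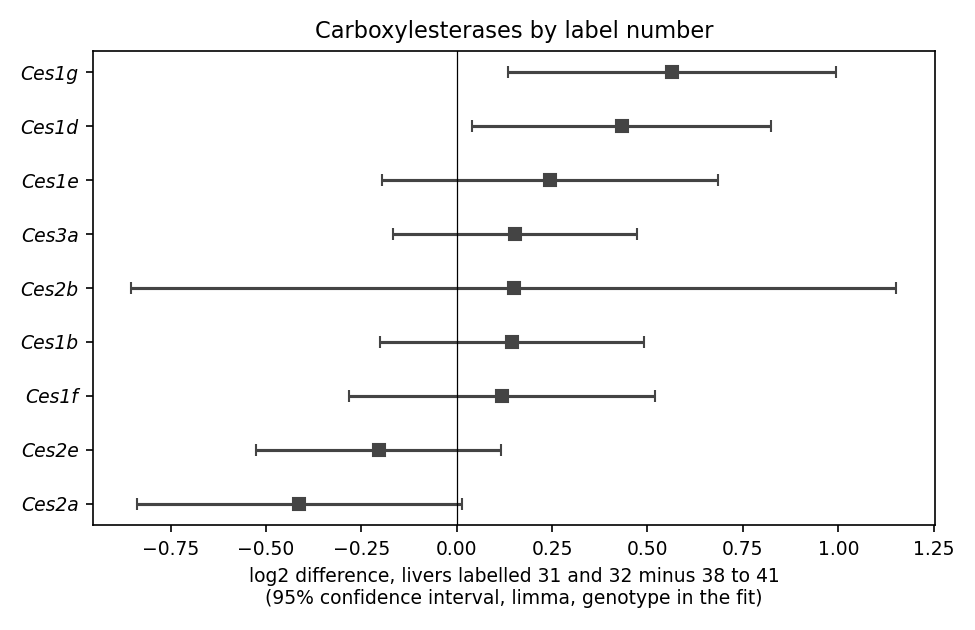
Log2 difference of livers labelled 31 and 32 from those labelled 38 to 41 (horizontal axis; bars are 95% confidence intervals from limma with genotype in the fit) for the 9 carboxylesterases (vertical axis). The intervals of Ces1g and Ces1d lie above 0 before adjustment over all genes, that of Ces2a reaches 0.01, and none passed after it.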

How the data were processed

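The deposited table holds 22206 rows and 1 column per liver, whose values look logarithmic and were read as log2. Per the labels' protocols RNA was extracted with Trizol and labelled with biotin. What the authors did to make these log2 values (log base, probe summarization, normalization, row baseline) is not given in the sources, and another base would rescale every fold. The platform annotation gives 19572 rows 1 symbol, 0 rows several and 2634 none, and 55 genes with several rows were each read from their highest-mean row. Each array was centred on its median. Genotypes, and label numbers with genotype as covariate, were tested by limma 3.58.1 under R 4.3.3 (two-sided, Benjamini-Hochberg over 19505 genes, threshold 0.05). The script was tested on simulated data. With 3 arrays per group, their number limits the precision.

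The carboxylesterases and gene lists were chosen with earlier results of these data known. The rule names all 10 genes and the other measured carboxylesterases, from each other list the 3 genes with the smallest p (2 with the largest difference for cell types), the 5 nearest profiles to Ces2b leaving out predicted genes, receptors of smell and small RNAs, and Hmgb2. Promoter windows were searched in Python 3.11.15 and aligned globally with Biopython 1.88. Livers with the same replicate number deviated together with correlations of 0.04 to 0.29, against -0.21 to 0.10 for livers with different numbers. The labels do not state that these livers are pairs. The main fit therefore leaves the replicate number out, and whether they are pairs stays unsettled. Alternatives were the values as deposited, quantile normalization, centring on hepatocyte markers, mean rows, no moderation, array weights, the replicate block, livers 38 to 41 alone and leaving out each liver.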

Additional observations from a re-analysis of the deposited data

How the results depend on the processing

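For HMGB2-KO against WT, limma called 0 genes under each of 14 alternatives, including the fit with the replicate block (0 genes, 858 at an unadjusted p under 0.05), which leaves the log2 fold change of Ces2b at 1.73 and that of Ces1b at -0.46. Of the 9 carboxylesterases only these 2 kept their sign under all 14. Keeping a sign goes with the size of a change, and Ces2b was chosen for its size. The values as deposited and the hepatocyte centring shift every log2 fold change, by -0.12 and -0.08, so small ones change side. The share of all genes that kept their sign is not given here. Ces2b was at 2.11 under quantile normalization and 1.65 with centring on hepatocyte markers. For livers 31 and 32 against 38 to 41, the 8 calls became 22 under quantile normalization and 0 without moderation (1544 at an unadjusted p under 0.05), and ran from 1 (without WT replicate 3 or HMGB2-KO replicate 3) to 12 (without WT replicate 1) with 1 liver left out. In that comparison 7 of the 9 carboxylesterases kept their sign and 0 were called under 11 alternatives (smallest adjusted p 0.371 in limma). Here too the share of all genes that kept their sign is not given. With 1 liver left out, Ces2b ran from -0.20 (without HMGB2-KO replicate 1) to 0.51, and Ces1f from -0.046 (without HMGB2-KO replicate 3) to 0.28. Of the 5 genes nearest to Ces2b, 5 stayed with the values as deposited and 2 without WT replicate 2. The cause of these shifts was not tested.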
